A study of Mus musculus with 10 samples.

Results

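The immunity-related GTPases, or Irg proteins, are interferon-inducible defence enzymes of the mouse. Background knowledge divides them into effectors, which load onto the vacuole around parasites such as Toxoplasma gondii and break it open, and regulators, which sit on the membranes of the cell's own organelles and hold the effectors inactive there. Interferon gamma induces them in many cell types, hepatocytes among them. The family members described here were fixed by gene symbol, 7 genes of the 34745 in the deposited table. Irgm1, Irgm2 and Igtp are the 3 regulators, and Iigp1, Tgtp1, Tgtp2 and Ifi47 are the 4 effectors. Each symbol had 1 row.

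RNA was sequenced from Hepa1-6, an established mouse hepatoma line labelled wild type, in 10 libraries. In the untreated group, 5 libraries came from cells that received no treatment. In the co-culture group, 5 libraries came from the same line after 48 h with CD8+ T cells, the lymphocytes that attack tumour cells. These T cells were taken from spleens of male C57/BL6 mice aged 6 to 8 weeks and activated for 5 days with antibodies to CD3 and CD28. All cultures were rinsed with PBS before RNA was taken, to clear floating cells and debris. Nothing in the labels says that the libraries of a group came from separate cultures, and p-values therefore measure the spread between these libraries, which may be technical.

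Library totals ran from 12922263 to 17100662 counts. Of 10 hepatocyte or hepatoma markers, Krt8 and Krt18 were abundant and Alb, Ttr, Apoa1 and Hnf4a had at most 6 counts summed over a group. Of the 10, 5 could be tested, and 2 were called lower, 2 higher and 1, Krt18, not called. Over all tested genes, 16.1% were called lower and 17.4% higher. Afp was lower after co-culture (log2 fold change -0.36, edgeR adjusted p = 0.00400), as was Krt8 (-0.25, edgeR adjusted p = 0.00790). Apoe was higher (0.74, edgeR adjusted p = 0.00497), and Trf went from 2 to 274 summed counts (edgeR adjusted p = 3.76e-07). CPM are counts divided by the library total after TMM scaling, a correction for library composition. The summed level of 14 T cell markers was 0.377 to 0.875 CPM in untreated and 0.614 to 0.920 CPM in co-culture libraries, and Cd3d, Cd3e, Cd2, Cd8a, Prf1 and Ifng were at 0 in all 10. The summed level of 12 macrophage markers was 58.4 to 65.2 CPM in untreated and 93.2 to 109.7 CPM in co-culture libraries. Cd14 and Cd68 made up most of that sum. Of the 12, 6 could be tested, and 4 were higher and 2 not called. Cd14 rose 1.53-fold and Csf1r 3.39-fold. Lyz2 rose 19.2-fold, from 0.931 to 18.2 CPM, and Adgre1 22.2-fold, from 0.162 to 3.66 CPM (edgeR adjusted p = 1.60e-09 and 3.52e-07). Cd68 (log2 fold change 0.006) and Mrc1 (0.33) were the ones not called (edgeR adjusted p = 0.968 and 0.0913). Itgam went from 1 to 55 summed counts and was too low to test. The part of these markers in the results on the Irg genes was not tested. Untreated replicate 2 stood apart from the other untreated libraries, being the highest of the 5 for all 7 members, against 21.1% of all 12666 tested genes, so the fold changes without it are given as well.

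What separates the regulators from the effectors is visible in their coding sequence. The stretch printed for each gene encodes the nucleotide-binding loop of the GTPase domain, and the capitals mark its deciding codon, which is shown because it is the textbook distinction between the groups. All 3 regulators carry a methionine codon there, and the effectors carry the lysine codon of a conventional GTPase. The sequences were read from GENCODE M21 transcripts (mm10), 5′ to 3′, and each pattern occurred 1 time in its protein.
Irgm1: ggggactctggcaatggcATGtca
Irgm2: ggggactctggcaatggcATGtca
Igtp: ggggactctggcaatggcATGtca
Tgtp1: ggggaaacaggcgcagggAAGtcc
Tgtp2: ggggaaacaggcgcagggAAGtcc
Ifi47: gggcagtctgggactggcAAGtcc

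The marked codon is residue 89 of Irgm1 and Irgm2, 97 of Igtp, 69 of Tgtp1 and Tgtp2 and 87 of Ifi47. In Iigp1 a lysine stands at residue 82. The 3 regulators share all 24 bases of this stretch, and over their whole coding sequences they are 65.3% to 71.4% identical, counted against the shorter of each pair. Tgtp1 and Tgtp2 are 99.7% identical, with 1244 of 1248 coding bases alike. In GENCODE M21, 73.1% of the 100-base windows of Tgtp1 transcripts and 76.8% of those of Tgtp2 also occur in transcripts of another gene, and 2180 of the 3102 windows of Tgtp1 occur in Tgtp2. The split of reads between Tgtp1 and Tgtp2 is therefore uncertain. Irgm2 and Igtp share 3.01% and 5.16% of such windows, their annotated exons overlap over 162 bases on the same strand, and the figures for Irgm1, Iigp1 and Ifi47 are 0, 0 and 0.842%.

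All 7 immunity-related GTPases were lower after co-culture. Each of them passed the filter on low counts, each was called lower (edgeR quasi-likelihood test, Benjamini-Hochberg adjusted p below 0.05), and each fell at least 2-fold. Among all tested genes, 16.1% were called lower, 17.4% higher and 1.58% lower by at least 2-fold. In all 7 members every co-culture library lay below every untreated library, which was the case for 11.1% of tested genes. The median log2 fold change (co-culture over untreated) of the 7 was -1.46, against 0.01 over all tested genes. Fewer cells of a type and less RNA per cell cannot be told apart in such bulk libraries.

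**Figure D1:**
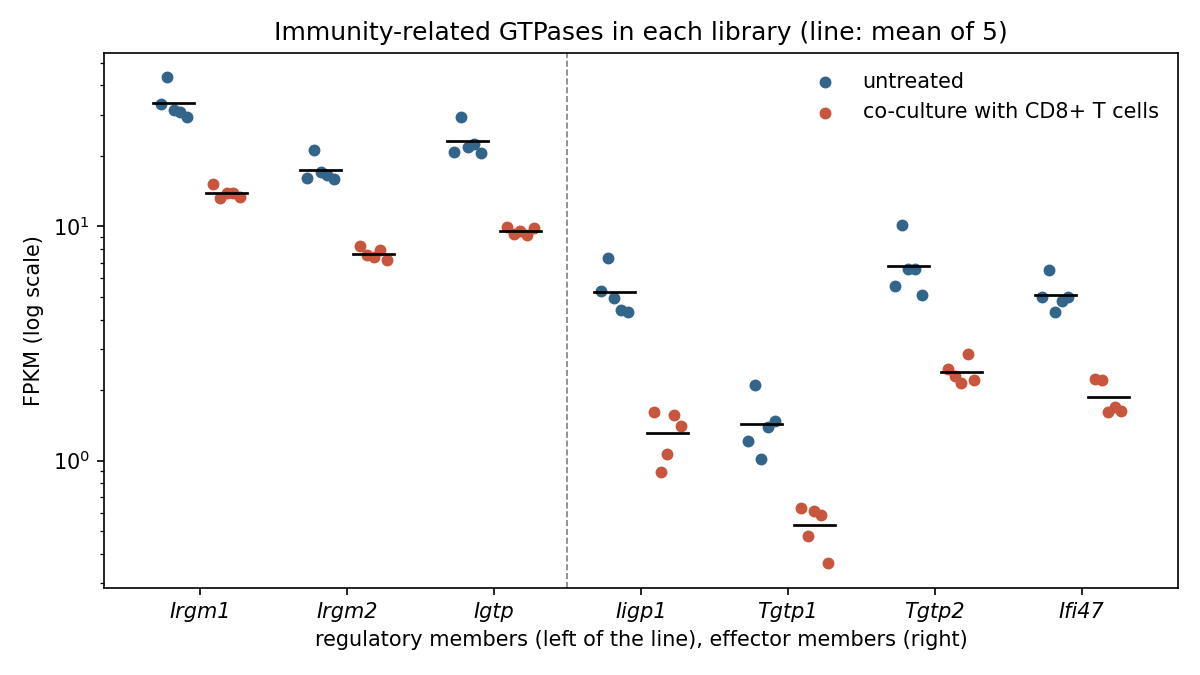
FPKM of each member on a log axis in each of the 10 libraries, 5 untreated and 5 after co-culture, with regulators left of the dashed line and effectors right of it. Black lines are group means. For every member the co-culture points lie below all untreated points, and the highest untreated point is always the same library, untreated replicate 2.

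Levels of different genes are compared in FPKM (fragments per kilobase of gene, scaled to the library total), which divides by gene length. The lengths implied by the deposited values ran from 3121 bases for Iigp1 to 7304 for Irgm1. They differ unevenly from the bases covered by GENCODE M21 exons, which are 5823 for Iigp1 and 5810 for Irgm1. For Igtp the implied length is 5121 bases and the exons cover 2022. The order of the members, their shares and the size of ratios between them therefore depend on the lengths used. The change of a single gene between the groups does not. Summed over the family, the level was 87.3, 119.8, 87.2, 86.9 and 81.9 FPKM in untreated replicates 1 to 5. After co-culture it was 40.2, 36.0, 36.2, 37.8 and 36.0 FPKM. The means were 92.6 ± 15.4 and 37.2 ± 1.82 FPKM (SD, n = 5), so the untreated libraries lay well above the co-culture libraries even without replicate 2.

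Among the regulators, Irgm1 (chromosome 11, 48861968 to 48871683, minus strand, mm10) had the highest deposited FPKM of the family. Its protein, also called LRG-47, is known in the mouse for a role in autophagy and in resistance to mycobacteria. It was at 33.3, 43.3, 31.3, 30.8 and 29.4 FPKM in the untreated libraries. After co-culture it was at 15.1, 13.3, 13.8, 13.9 and 13.4 FPKM. The co-culture libraries lay close together and far below the lowest untreated one. From the counts, its log2 fold change was -1.31 ± 0.0891 (SE; adjusted p = 2.41e-07 by edgeR), a level 2.47-fold lower, and -1.20 without untreated replicate 2.

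Igtp (chromosome 11, 58199556 to 58207591, plus strand), also called Irgm3, encodes a regulator found on the endoplasmic reticulum. Its untreated libraries were at 20.8, 29.4, 21.9, 22.5 and 20.6 FPKM. Its co-culture libraries were at 9.97, 9.25, 9.58, 9.22 and 9.89 FPKM, the tightest group of any member relative to its mean. The log2 fold change was -1.30 ± 0.0869 (SE, edgeR adjusted p = 1.98e-07), and -1.20 without untreated replicate 2.

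Irgm2 (chromosome 11, 58199618 to 58222779, plus strand) encodes the regulator of the Golgi membranes, and its annotated bounds overlap those of Igtp. The untreated libraries were at 16.1, 21.1, 17.1, 16.5 and 16.0 FPKM. The co-culture libraries were at 8.22, 7.58, 7.38, 7.94 and 7.16 FPKM. Irgm2 had the smallest fall of the 7, at -1.21 ± 0.0751 on the log2 scale (SE), and also the smallest p of the 7 (edgeR, adjusted p = 9.18e-08). Without untreated replicate 2 it was -1.14.

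Among the effectors, Iigp1 had the largest fall of the family. It encodes Irga6, the effector whose loading on the Toxoplasma vacuole is best described. Its untreated libraries held 264, 327, 265, 225 and 182 counts, or 5.27, 7.36, 4.97, 4.40 and 4.31 FPKM. After co-culture 76, 46, 43, 70 and 66 counts remained, or 1.61, 0.893, 1.07, 1.57 and 1.40 FPKM. The highest co-culture library was well below the lowest untreated one. The log2 fold change was -2.04 ± 0.178 (SE, edgeR adjusted p = 2.20e-06), a level 4.11-fold lower, and -1.90 without untreated replicate 2.

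Tgtp2 (chromosome 11, 49057194 to 49064206, minus strand) and its near copy Tgtp1 (48985327 to 48994172, minus strand) encode Irgb6, an effector named after T cells, in which it was found. Tgtp2 was at 5.59, 10.1, 6.60, 6.56 and 5.09 FPKM untreated and at 2.45, 2.31, 2.14, 2.86 and 2.20 FPKM after co-culture. Tgtp1 was far lower, at 1.21, 2.10, 1.01, 1.39 and 1.47 FPKM untreated and 0.625, 0.477, 0.609, 0.587 and 0.364 FPKM after co-culture, the latter from 21 to 36 counts a library. Both genes were lower in every co-culture library, and untreated replicate 2 was again the highest. The log2 fold changes were -1.53 ± 0.167 for Tgtp2 and -1.46 ± 0.211 for Tgtp1 (SE), with adjusted p by edgeR of 1.49e-05 and 0.000161. With the counts of both summed into 1 gene, which removes the doubt about their split, it was -1.52 ± 0.158 (edgeR adjusted p = 1.06e-05). Without untreated replicate 2 the values were -1.35 for Tgtp2 and -1.29 for Tgtp1. The ratio of Tgtp2 to Tgtp1 FPKM ranged from 3.45 to 6.52 in untreated and from 3.52 to 6.05 in co-culture libraries, so the groups overlapped.

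Ifi47 (chromosome 11, 49076587 to 49096974, plus strand) encodes Irgd, also called IRG-47, an effector that reaches the parasite vacuole in mouse cells. It was at 4.98, 6.48, 4.32, 4.78 and 4.98 FPKM in untreated libraries. It was at 2.23, 2.20, 1.62, 1.70 and 1.62 FPKM after co-culture. Co-culture replicates 1 and 2 were higher than the other 3, and all 5 were below the untreated range. The log2 fold change was -1.47 ± 0.130 (SE, edgeR adjusted p = 2.47e-06), and -1.38 without untreated replicate 2.

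The order of the members by deposited FPKM was nearly the same in both groups. In untreated cells it ran from Irgm1 through Igtp, Irgm2, Tgtp2, Iigp1 and Ifi47 to Tgtp1. There the library ranges of Igtp and Irgm2, of Tgtp2 and Iigp1, and of Iigp1 and Ifi47 overlapped. Within single untreated libraries, however, Igtp was above Irgm2 in 5 of 5 and Tgtp2 above Iigp1 in 5 of 5, while Iigp1 was above Ifi47 in 3 of 5, so the order of this last pair was not settled. After co-culture Ifi47 stood above Iigp1, though the highest Iigp1 library was at 1.61 FPKM and the lowest Ifi47 library at 1.62 FPKM. The ranges of Tgtp2 and Ifi47 overlapped there, with Tgtp2 above Ifi47 in 5 of 5 libraries.

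**Figure D2:**
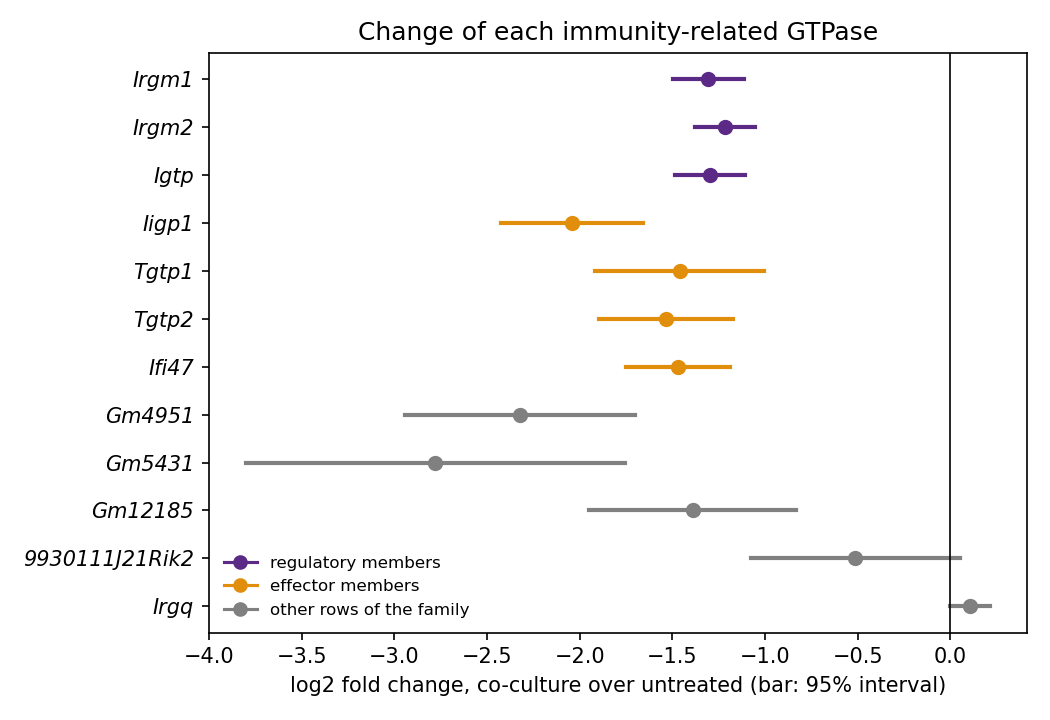
Log2 fold change of each tested Irg gene, co-culture over untreated, from the edgeR fit on counts, with 95% intervals as bars (5 libraries a group). The 3 regulators lie between -1.31 and -1.21, the 4 effectors between -2.04 and -1.46, and the interval of Iigp1 lies wholly below those of the regulators.

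The 3 regulators held most of the family's FPKM in every library. Their log2 fold changes had a median of -1.30 and ranged from -1.31 to -1.21, while those of the effectors had a median of -1.50 and ranged from -2.04 to -1.46. The 95% interval of Iigp1, -2.42 to -1.66, did not touch those of Irgm1 (-1.50 to -1.11), Irgm2 (-1.38 to -1.05) and Igtp (-1.49 to -1.11). The intervals of Tgtp1 (-1.92 to -1.01), Tgtp2 (-1.89 to -1.17) and Ifi47 (-1.75 to -1.19) overlapped them.

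Taken as sums of deposited FPKM, the regulators outweighed the effectors 4.12, 3.60, 4.16, 4.08 and 4.17 times in untreated replicates 1 to 5. After co-culture the ratio of regulator to effector FPKM was 4.82, 5.12, 5.66, 4.63 and 5.45. All 5 co-culture libraries lay above all 5 untreated ones. On the log2 scale the mean ratio was 2.01 ± 0.0889 in untreated and 2.36 ± 0.121 in co-culture libraries (SD, n = 5), a difference of 0.35, or 0.31 without untreated replicate 2. This sum over chosen members is a description and carries no test. Without Iigp1 the difference was 0.22, with ratios of 5.02 to 5.97 and 6.04 to 7.27 that still did not overlap. Taken singly against the summed regulators, Iigp1 was the effector whose ratios did not overlap between groups, 12.8 to 15.9 in untreated and 19.8 to 33.7 in co-culture libraries, while those of Tgtp1, Tgtp2 and Ifi47 overlapped. Whether the fall differed between regulators and effectors was not tested beyond these values.

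**Figure D3:**
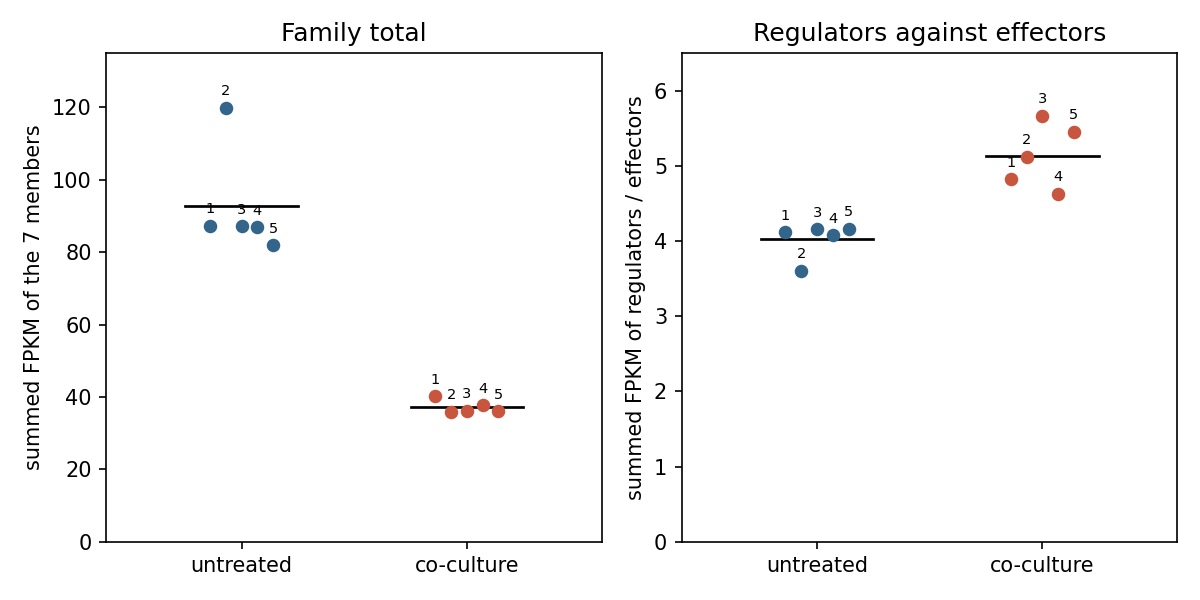
Left, summed FPKM of the 7 members per library. Right, summed FPKM of the 3 regulators divided by that of the 4 effectors. Points are libraries with their replicate number and lines are group means. The total falls from 81.9 to 119.8 FPKM in untreated to 36.0 to 40.2 FPKM in co-culture libraries, and the ratio lies at 3.60 to 4.17 and 4.63 to 5.66.

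The make-up of the family changed little beyond this. Irgm1 held 36.3% ± 1.08 of the family's FPKM in untreated and 37.3% ± 0.572 in co-culture libraries (SD, n = 5), with overlapping ranges. The share of Igtp, 24.9% and 25.8%, overlapped too. That of Irgm2 went from 18.8% ± 0.852 to 20.6% ± 0.507, and all co-culture libraries were above all untreated ones. Iigp1 went from 5.64% ± 0.473 to 3.49% ± 0.736, with all co-culture libraries below. Tgtp2 held 7.23% and 6.42%, Ifi47 5.53% and 5.02%, and Tgtp1 1.54% and 1.42%, each with overlapping ranges.

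**Figure D4:**
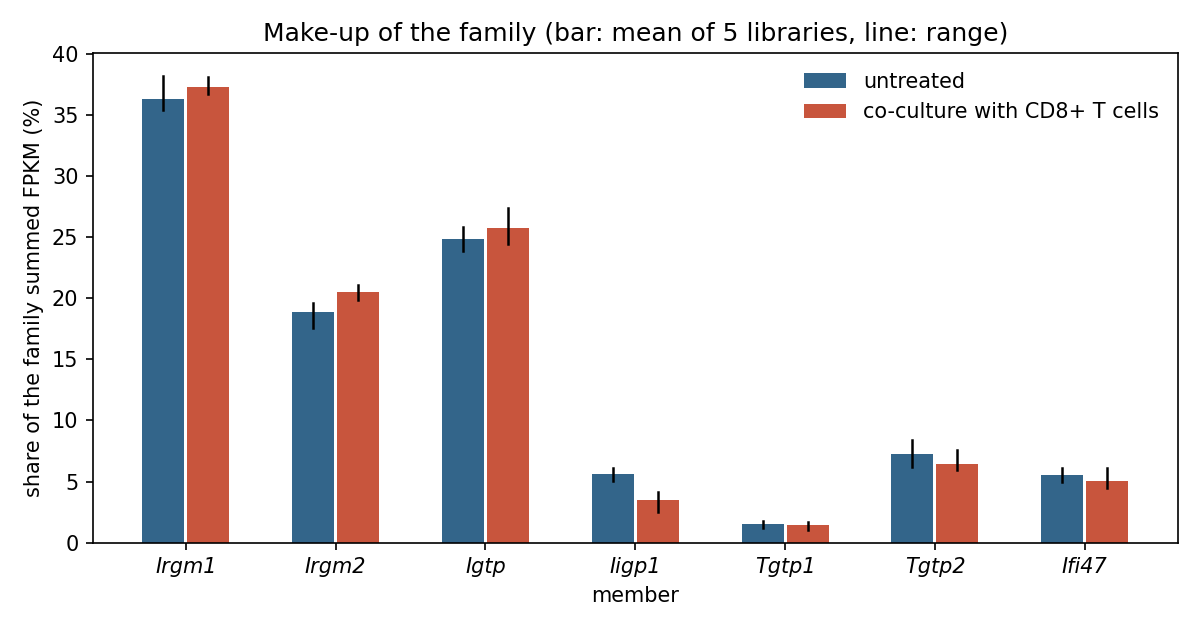
Share of each member in the family's summed FPKM, in percent, as the mean of 5 libraries (bars) with the lowest and highest library (lines). The groups do not overlap for Irgm2, which is higher after co-culture, and for Iigp1, which is lower.

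Likeness between profiles was measured as the root mean square difference, over the 10 libraries, between log2 CPM profiles centred on their own means. The fall between the groups is part of every profile, so a small value largely restates a fall of like size. Among the 3 pairs of regulators it was 0.0671 to 0.0808, among the 6 pairs of effectors 0.240 to 0.457, and among the 12 mixed pairs 0.174 to 0.466. The regulators have more counts and so less counting error, which was not separated from this difference. Iigp1 was farthest from the family's mean profile, at 0.345, and Irgm1 nearest, at 0.0964. Of 11337 genes outside the family, those nearest to the mean profile included Cmpk2, a mitochondrial nucleotide kinase (0.101), the chemokine gene Cxcl9 (0.133), Xaf1 (0.142) and the chemokine gene Cxcl10 (0.145). Their log2 fold changes were -1.49, -1.65, -1.56 and -1.60, a direction and size that their choice by likeness to the members already fixed.

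The promoters of the members hold matches to motifs of interferon-regulated transcription. RefSeq promoter windows on GRCm38.p6, from 250 bases before to 50 after the annotated start, were available for 6 of the 7, and Iigp1 has no entry. As background, the interferon-stimulated response element (ISRE) binds factors downstream of both interferon types, and the gamma-activated site (GAS) binds factors activated by interferon gamma. Both strands were searched for the ISRE core GAAANNGAAA and the GAS core TTCNNNGAA. An ISRE core was found in 5 of 6 members, against 3.44% of all 32851 windows, and a GAS core in 4 of 6, against 8.30%. The stretch around the matches is printed for the 5, with every ISRE and GAS core in capitals.
Irgm1: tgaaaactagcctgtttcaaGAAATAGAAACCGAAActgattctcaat
Irgm2: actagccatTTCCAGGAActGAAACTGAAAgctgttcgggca
Igtp: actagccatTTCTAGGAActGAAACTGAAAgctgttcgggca
Tgtp1: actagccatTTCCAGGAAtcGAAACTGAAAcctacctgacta
Tgtp2: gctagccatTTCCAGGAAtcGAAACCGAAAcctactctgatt

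In Irgm2, Igtp, Tgtp1 and Tgtp2 the GAS core is the capital run on the left and ends 2 bases before the ISRE core. Irgm1 has no GAS core but 2 ISRE cores that overlap. The ISRE core begins 30 bases before the annotated start in Irgm1, 34 in Igtp, 64 in Irgm2, 70 in Tgtp2 and 77 in Tgtp1. For Irgm2 and Tgtp1 this RefSeq start lies well inside the gene bounds given above. Their windows are at chr11:58214727-58215026 and chr11:48992197-48992496. The arrangement of a GAS core 2 bases before an ISRE core occurred in 5 of the 32851 windows, those of these 4 members and of Gm12185, another Irg gene. It was searched for after it had been seen in these windows, and the genes are related copies, so it is a description. Over the whole window, Irgm2 and Igtp are 81.3% identical and Tgtp1 and Tgtp2 71.3%, and the other pairs 44.0% to 54.7%.

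The whole windows of 1 regulator and 1 effector, which are 52.3% identical, follow with the same capitals. They are Igtp at chr11:58199306-58199605 (plus strand) and Tgtp2 at chr11:49064163-49064462 (minus strand).
Igtp: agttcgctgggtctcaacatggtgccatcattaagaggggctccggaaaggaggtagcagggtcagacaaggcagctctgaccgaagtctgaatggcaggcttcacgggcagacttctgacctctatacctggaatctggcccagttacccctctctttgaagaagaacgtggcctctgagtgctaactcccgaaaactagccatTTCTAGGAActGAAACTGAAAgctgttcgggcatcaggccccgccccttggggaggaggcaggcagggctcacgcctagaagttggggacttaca
Tgtp2: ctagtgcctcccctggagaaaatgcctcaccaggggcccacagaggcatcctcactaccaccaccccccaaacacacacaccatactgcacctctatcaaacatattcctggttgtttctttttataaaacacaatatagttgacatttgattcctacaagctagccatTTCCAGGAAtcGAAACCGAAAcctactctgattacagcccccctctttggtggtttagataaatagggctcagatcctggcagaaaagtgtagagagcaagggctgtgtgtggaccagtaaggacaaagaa

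Ifi47 had neither core in its window, which starts from the upstream of its annotated starts. That says only that these letters are not in this window. Ifi47 fell by 1.47 on the log2 scale, between Irgm1 and Tgtp2, which both hold an ISRE core. Whether the cores have a part in the fall of any member was not tested.

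**Figure D5:**
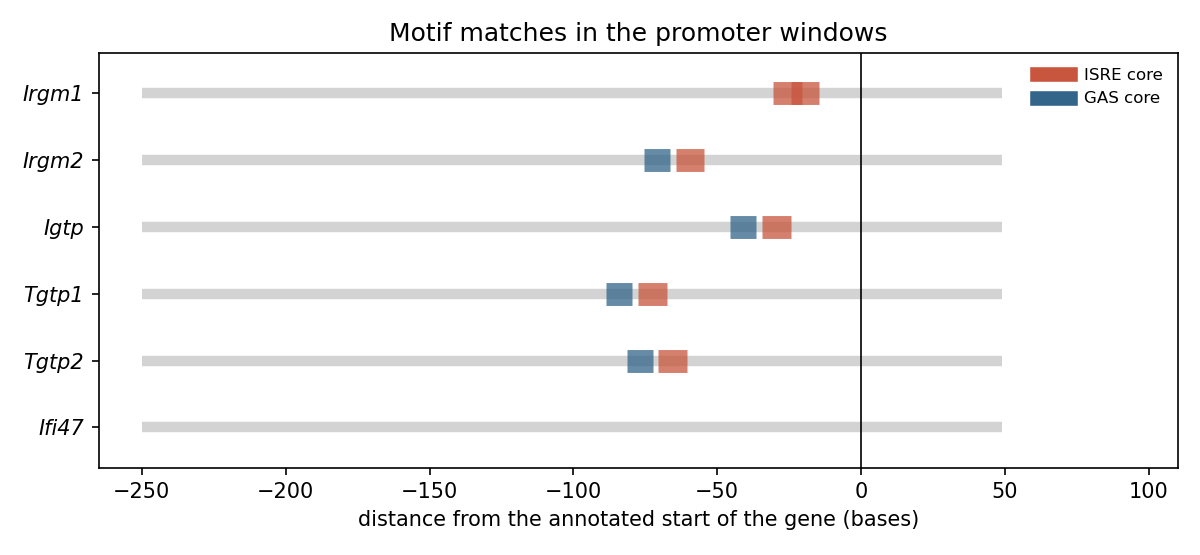
Positions of ISRE cores (red) and GAS cores (blue) in the promoter windows of the 6 members with a RefSeq entry, as distance in bases from the annotated start. The 2 overlapping red boxes of Irgm1 begin 30 and 24 bases before the start, and in Irgm2, Igtp, Tgtp1 and Tgtp2 a GAS core lies just before a single ISRE core.

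Some further rows of the wider Irg family were lower after co-culture as well. Of 12 further symbols listed for the family, 9 had a row in the deposited table. Gm12250, Irgb10 and Irgc had no row by those symbols. Some of the listed symbols are names of the same gene. Gm12250 and Irgb10 are such a pair, and Irgc is another name of Irgc1, whose row is given below. Of the 9 rows, 5 could be tested and 3 of them fell, each with groups that did not overlap. Over all tested genes, 16.1% were called lower, and 11.1% had every co-culture library below every untreated one. Gm5431 and Gm4951 passed the filter on low counts through their untreated libraries. In co-culture libraries they held only 0 to 10 and 5 to 17 counts. Rows let in this way lean towards a fall, so their falls are only a description. Gm5431 went from 115 to 16 counts summed over 5 libraries with 1 co-culture library at 0 (log2 fold change -2.78 ± 0.474 SE, edgeR adjusted p = 0.000574). Gm4951 went from 248 to 48 counts (-2.32 ± 0.287, edgeR adjusted p = 4.44e-05), and Gm12185, some of whose exons overlap Tgtp1, from 267 to 99 (-1.39 ± 0.258, edgeR adjusted p = 0.00110). For 9930111J21Rik2 the value was -0.51 (edgeR adjusted p = 0.151). Irgq, a member of the family by sequence, was well expressed at 59.9 ± 2.63 and 64.5 ± 2.72 CPM (SD, n = 5) and did not pass, at a log2 fold change of 0.11 with a 95% interval of -0.00384 to 0.22 (edgeR adjusted p = 0.129). Among the 4 rows too low to test, F830016B08Rik had 25 and 3 summed counts and 9930111J21Rik1 had 21 and 17, Irgc1 had 1 in each group and Gm12187 had 0.

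By the median of each list, genes that work with the Irg proteins changed less than the 7 members, whose median was -1.46. Single genes among them fell as far as the members or further. The guanylate-binding proteins, larger interferon-inducible GTPases that act on the same vacuoles, were the list closest to the members, with 8 of 9 tested genes lower, none higher and a median log2 fold change of -1.14. Gbp3 was at -1.79, a larger fall than in any member but Iigp1, and Gbp2 at -1.19. Of 17 genes of interferon receptors and signalling, 5 were lower and 4 higher, with a median of -0.10, and Usp18, which encodes an inhibitor of type I interferon signalling, was at -1.73. The autophagy conjugation genes, whose products are needed in mouse cells to place effectors on the parasite vacuole, had 5 of 13 lower and 1 higher. Their median was -0.15, and the lowest value among the 13 was -0.25. Gabarap (-0.17) and Gabarapl2 (-0.16) had the smallest p.

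Of 7 genes for ubiquitin marking and its adaptors, 4 were lower and none higher, with a median of -0.26, led by Rnf213 (-0.91) and Sqstm1 (-0.51). Of 9 tested large GTPases of the dynamin, mitofusin and atlastin kind, which interferon does not typically induce, 1 was lower and 1 higher, Atl3 at -0.22 and Atl2 at 0.25, and their median was 0.10. These shares can be read beside the 16.1% lower and 17.4% higher of all tested genes, and the lists were not compared by a test.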

How the data were processed

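RNA from 10 libraries was measured as gene counts. Per the submitters' processing notes, HISAT2 2.1.0, Bowtie2 2.2.5, RSEM 1.2.8 and the build mm10 were used, without the role of each. Annotation release, read length and strand setting: not given in the sources used here. Per the file headers, both units stand side by side for each library. The deposited counts are whole numbers per gene and were not normalized. The deposited FPKM, made by the authors, are those counts divided by 1 length per gene and the library total, with an implied length that differed by at most 0.00104% between libraries over 9379 genes.

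Groups and replicate numbers came from the sample titles. Counts were tested with edgeR 4.0.16 (R 4.3.3: filterByExpr, TMM, two-sided quasi-likelihood F test) over 12666 genes, with Benjamini-Hochberg adjusted p below 0.05 called. The test was checked on simulated counts with known changes. Standard errors come from the log2 fold change and F, and intervals are 95%. No replicate pair agreed within sampling noise (chi-square per degree of freedom 7.03 to 16.0). Alternatives were other scalings, filters, limma 3.58.1, DESeq2 1.42.0, the replicate block and leaving out libraries. The rule for named genes took all Irg rows, the 2 smallest p of each list and the 5 most similar profiles, of which 1 gene is not reported here. Ifi47's place between other members and the whole promoter windows were chosen after the values were seen. Members and lists were chosen with earlier results of these data known.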

Additional observations from a re-analysis of the deposited data

Results flagged for a closer look

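Untreated replicate 2 lay far from the other 4 untreated libraries in the regulators. Its level was 318 CPM for Irgm1, where the others were at 219 to 243 CPM. It was 147 CPM for Irgm2, against 111 to 120.5 CPM, and 151 CPM for Igtp, against 107 to 118 CPM. The log2 ratio of regulator to effector FPKM was 1.85 in that library and 2.03 to 2.06 in the other 4, which makes it the untreated library farthest from the co-culture values. In each case the gap to the nearest library was a larger part of the group's range than Dixon's critical value of 0.71 for 5 libraries. 16 groups of values were examined and 4 were picked out, where chance picks out about 1 in 20 of independent groups. All 4 are the same library, in regulators of like profile and in a ratio built from them. They are not independent cases, so this share cannot be set against chance. The library was also the highest of the untreated ones for 8 of 9 tested guanylate-binding protein genes and for 2 of 9 constitutive large GTPases. Without it all 7 members were still called lower.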

How the results depend on the processing

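Each of the 7 members kept its direction and its call in all alternatives in which it could be fitted, 18 for Tgtp1 and Tgtp2 and 19 for the others. The largest adjusted p was 0.00170, for Tgtp1 with the replicate block. Without untreated replicate 2 the log2 fold changes were -1.20 (Irgm1), -1.14 (Irgm2), -1.20 (Igtp), -1.90 (Iigp1), -1.29 (Tgtp1), -1.35 (Tgtp2) and -1.38 (Ifi47). With limma on log2(FPKM + 1), whose pseudocount shrinks low genes, Tgtp1 was at -0.66 and Iigp1 at -1.43. The difference of 0.35 in the log2 ratio of regulators to effectors moved to 0.46 with Tgtp1 and Tgtp2 left out and to 0.22 with Iigp1 left out. Calls over all genes were 2044 lower and 2204 higher, and 1625 and 1762 under a replicate block. With limma on log2(FPKM + 1) they were 1746 lower and 2653 higher, so the shares over all tested genes depend on the method. Same-numbered libraries did not deviate together (correlations of -0.0986 to 0.0507), so the numbers are not taken as pairs. Tgtp1 has 21 to 36 counts in each co-culture library, which limits its precision. The split of reads between Tgtp1 and Tgtp2 limits both.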
